A study of Mus musculus with 6 samples.

Results

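Trp53, which encodes the transcription factor p53, was followed together with 9 genes known as its stress targets, Mdm2, Ccng1, Trp53inp1, Phlda3, Sesn1, Sesn2, Zmat3, Btg2 and Gadd45a, while mouse erythroleukemia cells differentiated. The 10 genes were chosen by name among the 23896 genes in the counts, and for each gene the RefSeq transcript with the highest mean count was used. All 10 passed the filter on low counts, as did 12381 genes in all. MEL cells are an erythroid leukemia line that resumes red cell maturation when DMSO is added. Cultures in log phase received 2% DMSO and were collected before treatment (day 0) and after 2 and 4 days, with 2 cultures per day and poly(A)-selected, stranded mRNA libraries from each. All 6 libraries come from this single line, no untreated culture of day 2 or day 4 was used here, and time in culture and DMSO therefore cannot be told apart. The status of the p53 protein in this line is not given in the sources used here.

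p53 is kept scarce by MDM2, a ubiquitin ligase that binds it and sends it to the proteasome, and many stresses act by loosening that grip. Stabilized p53 binds DNA as a tetramer and switches on genes for cell cycle arrest, repair, antioxidant defence and cell death, and Mdm2 is itself one of the genes it switches on, which closes a feedback loop. Most of this control acts on the protein, so mRNA of Trp53 is not a measure of p53 activity, and several of the targets also answer to other factors, among them FOXO proteins and ATF4. In the erythroid lineage p53 is best known for the anemia that follows when ribosome assembly fails.

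The sequence that p53 recognizes consists of a pair of 10-base half-sites. RefSeq promoter windows (GRCm38.p6, 250 bases before to 50 bases after the start of transcription) were given for 8 of the 10 genes, in 9 windows, and not for Trp53inp1 and Zmat3. They were searched on both strands for the p53 response element with a spacer of at most 1 base and at most 2 mismatches outside the fixed C and G of each half-site. Of the 8 genes only Ccng1 held a match, and among all 27025 genes with a window 218 (0.807%) did. The same search found a match at Cdkn1a and Bax, p53 targets outside the group whose values are given further on. It found none in the windows of Bbc3, Mdm4, Cdkn2a, Ccng2, Sesn3 and Gadd45b, which are also named further on. Ccng1, Cdkn1a and Bax are shown because their mRNAs took different courses. The half-sites are in capitals, and each sequence is written along the strand of its gene. For Ccng1 the 227 bases of the window that lie outside the gene are given (chr11:40755310-40755536, minus strand). RefSeq holds more than 1 start for Ccng1, and the match begins 195 bases before the start on which the window is set and 172 bases before the outermost start of the gene. For Cdkn1a (chr17:29090913-29090962, plus strand, match from 51 bases before 1 of its 2 starts) and Bax (chr7:45467064-45467114, minus strand, match from 201 bases before the start) the match is given with 15 bases on each side.
Ccng1: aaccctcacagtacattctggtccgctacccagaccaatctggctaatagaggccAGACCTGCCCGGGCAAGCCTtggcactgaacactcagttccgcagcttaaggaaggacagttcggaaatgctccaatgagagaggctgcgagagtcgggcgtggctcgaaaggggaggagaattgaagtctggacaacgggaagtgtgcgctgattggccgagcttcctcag
Cdkn1a: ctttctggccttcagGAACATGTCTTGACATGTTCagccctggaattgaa
Bax: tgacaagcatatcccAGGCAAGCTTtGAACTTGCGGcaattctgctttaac
The matches of Ccng1 and Cdkn1a had 1 mismatch and no spacer, whereas that of Bax had 2 mismatches and a spacer of 1 base. A match is a description of these letters, and a window without a match says nothing of sites elsewhere in a gene.

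Each library held between 35294930 and 53899476 counts on transcripts. Isoforms of a gene had nearly the same counts (Trp53 2750 and 2750 at day 0 replicate 1), so a read can be counted more than once. Reads on no feature made up 50.5% to 54.1% of such reads and counts on transcripts together at day 0 and day 2. At day 4 they made up 58.1% to 58.4%, and these are not shares of all reads. Levels are given as counts scaled to the library size with TMM factors (CPM). The 10 erythroid markers examined summed to between 1170 and 1218 CPM at day 0 and between 17890 and 20080 CPM at day 4. Most of the day 4 sum came from an alpha-globin and a beta-globin transcript, with means of 10626 and 5035 CPM. Not all of the 10 rose, since 1 was lower by day 4 (log2 fold change -0.54). Defining markers of other blood cells were near 0, since the 5 myeloid markers in the files summed to at most 2.16 CPM and the 5 lymphoid markers to at most 0.221 CPM in any library, with Cd8a at 0 counts in all 6. The 4 mast cell markers summed to 3.92 and 4.27 CPM at day 0 and to 0.0277 and 0.0221 CPM at day 4. The 4 megakaryocyte markers summed to 268 and 271 CPM at day 0, between 223 and 247 CPM at day 2 and between 560 and 632 CPM at day 4, with Itga2b the most abundant, and their part in the results was not tested. In bulk libraries, fewer cells of a type and less RNA per cell cannot be told apart.

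By day 4, 7 of the 10 genes had risen and 1 had fallen. Trp53inp1 rose most, followed by Btg2, and Zmat3, Gadd45a, Sesn1, Trp53 and Ccng1 rose by smaller amounts, whereas Sesn2 fell. Mdm2 and Phlda3 were not called. A gene was called where edgeR gave an adjusted p below 0.05, with the adjustment made over the 18351 transcripts that were tested. The number of 8 in 10 is near the 71.8% called among all 12381 genes, of which 35.5% were higher and 36.4% lower. In the early step, from day 0 to day 2, 6 genes were higher and 1 was lower, where 62.5% of all genes were called (31.0% higher and 31.5% lower). In the late step, from day 2 to day 4, 4 were higher and 0 lower, where 30.3% of all genes were called (14.0% higher and 16.2% lower). With a log2 fold change of 1 or more required as well, 3 genes were left in the early step, 2 in the late step and 4 over the whole course, beside 23.2%, 5.94% and 35.6% of all genes. Both day 4 cultures lay above both day 0 cultures for the 7 risen genes and for Mdm2, as for 42.3% of all genes, and below them for Sesn2, as for 42.4%. The 10 genes had a median log2 fold change of 0.64, 0.25 and 0.79 for the early step, the late step and the whole course, where that of all genes stayed between -0.02 and 0.01. With DESeq2 the numbers called were the same, 7, 4 and 8.

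**Figure D1:**
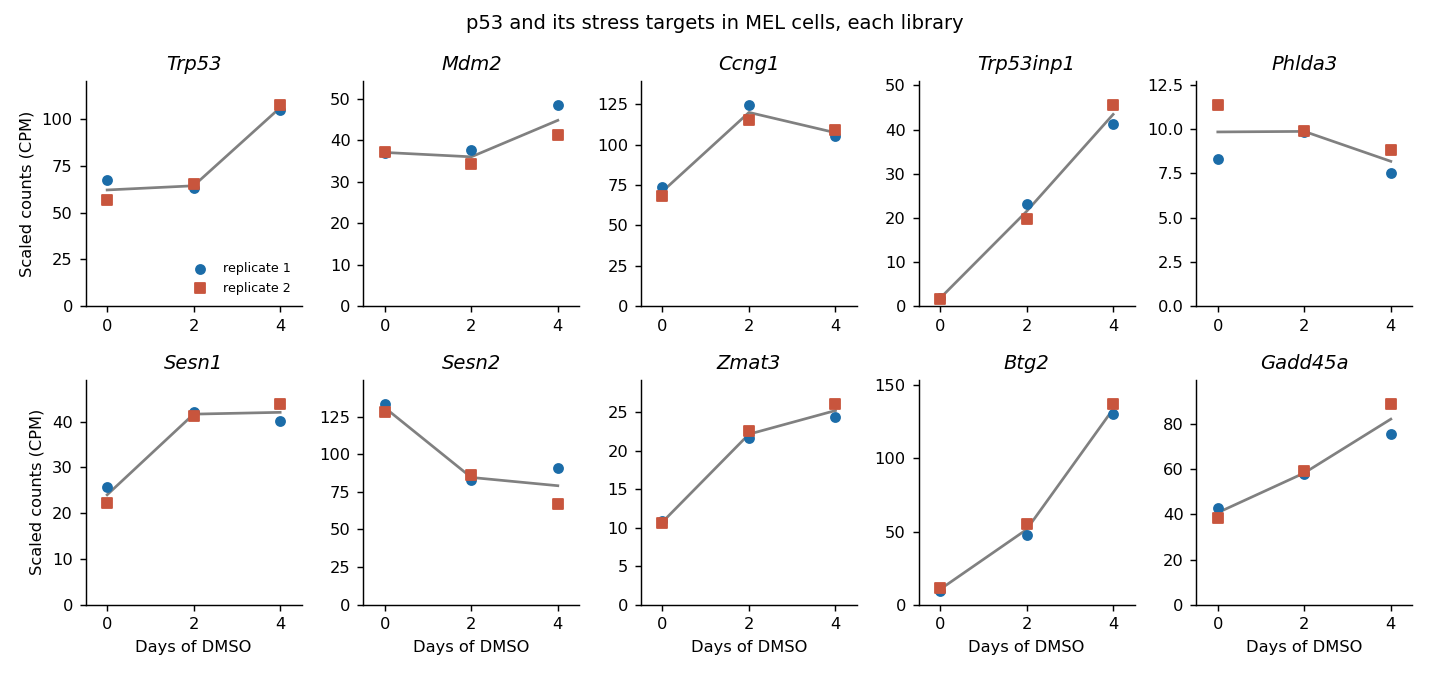
Scaled counts (CPM, linear axis from 0) of the 10 genes in each library against days of DMSO, with circles for replicate 1, squares for replicate 2 and the line through the mean of 2 cultures. Trp53inp1 and Btg2 climbed at each step, Ccng1, Sesn1 and Zmat3 climbed mainly by day 2, Trp53 climbed after day 2, and Sesn2 went down by day 2.

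Trp53 (NM_001127233, gene on chromosome 11 from 69580348 to 69591873 of GRCm38) passed the test in the late step and not in the early one. Its level was 67.4 and 56.8 CPM in the day 0 cultures, 63.3 and 65.3 CPM at day 2 and 105 and 107 CPM at day 4. The day 2 values lay between those of day 0, and both day 4 values lay above all others. In the early step its log2 fold change was 0.05 (standard error, SE, 0.11, edgeR adjusted p = 0.70), in the late step 0.72 (SE 0.11, edgeR adjusted p = 0.00112), and its total rise by day 4 was 0.77, or 1.71-fold (SE 0.11, edgeR adjusted p = 7.6e-05). In the GENCODE annotation 24.3% of the 25-base words of this transcript also occur in the processed pseudogene Trp53-ps, so part of its reads may be shared.

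Mdm2 (NM_010786, gene on chromosome 10 from 117688875 to 117710758), the ligase and feedback target of p53, was not called in any comparison. It was at 36.9 and 37.1 CPM at day 0, 37.6 and 34.3 CPM at day 2 and 48.4 and 41.1 CPM at day 4. Both day 4 cultures were above the other 4, but they lay further apart than those of the other days. On the log2 scale it differed by -0.04 in the early step (SE 0.12, edgeR adjusted p = 0.773), by 0.32 in the late step (SE 0.12, edgeR adjusted p = 0.0666) and by 0.27 over both (SE 0.12, edgeR adjusted p = 0.0584). The call depended on the processing, since scaling by total counts gave 0.39 over both steps (edgeR adjusted p = 0.0146). A fit of days 2 and 4 alone called the late step (0.31, edgeR adjusted p = 0.0187). That fit called 44.0% of all genes in the late step, where the main fit called 30.3%. The fits without replicate 1 or replicate 2 of day 0 called the late step of Mdm2 too, again with a larger share of all genes called. The 2 cultures of day 4 pulled in opposite directions, since the change over the whole course was 0.38 without replicate 2 (edgeR adjusted p = 0.0492) and 0.15 without replicate 1 (edgeR adjusted p = 0.399), where the late step was 0.19 (edgeR adjusted p = 0.389).

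Among 25 other regulators of p53, which include ligases, kinases and acetyltransferases, 7 were higher, 10 lower and 8 not called by day 4. Their median log2 fold change was -0.16, and the 68.0% called were near the 71.8% of all genes. Mdm4, the partner of MDM2 that masks the p53 activation domain, rose from 34.7 ± 0.461 CPM through 47.7 ± 1.70 to 51.2 ± 1.72 on days 0, 2 and 4 (SD, n = 2; log2 fold change by day 4 of 0.56, SE 0.10, edgeR adjusted p = 0.000539). Cdkn2a, whose locus encodes the MDM2 antagonist ARF and the kinase inhibitor p16INK4a from shared exons, was at 124 and 130 CPM at day 0, 64.8 and 69.7 CPM at day 2 and 47.2 and 49.9 CPM at day 4. Its days did not overlap and its log2 fold change by day 4 was -1.39 (SE 0.10, edgeR adjusted p = 5.78e-07). These counts do not tell the ARF and p16INK4a transcripts apart. Trim24, another ubiquitin ligase for p53, rose (log2 fold change 1.64, edgeR adjusted p = 8.58e-07), and Chek1, a checkpoint kinase of S phase, fell (-1.46, edgeR adjusted p = 5.33e-06). For Chek1 the fall came after day 2, with -0.11 in the early step (edgeR adjusted p = 0.532) and -1.35 in the late step (edgeR adjusted p = 0.00021).

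Btg2 (NM_007570, gene on chromosome 1 from 134074865 to 134079155), an antiproliferative protein that recruits deadenylases to mRNAs, rose at both steps. It had 9.34 and 11.8 CPM at day 0, 47.5 and 55.3 CPM at day 2 and 130 and 137 CPM at day 4, so no value of a later day reached down to an earlier one. It gained 2.28 on the log2 scale in the early step (SE 0.14, edgeR adjusted p = 3.77e-07), 1.38 in the late step (SE 0.13, edgeR adjusted p = 0.000123) and 3.66, or 12.6-fold, over the course (SE 0.14, edgeR adjusted p = 1.24e-08). Among all genes, 8.33% were called higher at both steps, and of the 10 genes Trp53inp1, Btg2 and Gadd45a were.

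Gadd45a (NM_007836, gene on chromosome 6 from 67035096 to 67037407), a small stress sensor that binds PCNA and stress kinases, rose by about the same amount at each step. It was at 43.1 and 38.6 CPM at day 0, 57.8 and 59.1 CPM at day 2 and 75.5 and 89.0 CPM at day 4, without overlap between days. Its log2 fold change was 0.52 in the early step (SE 0.12, edgeR adjusted p = 0.00254), 0.49 in the late step (SE 0.12, edgeR adjusted p = 0.00888) and 1.01 over both (SE 0.12, edgeR adjusted p = 1.45e-05). The late step was no longer called without replicate 1 of day 2 (0.48), replicate 2 of day 2 (0.51) or replicate 2 of day 4 (0.37). Each of these fits left 1 culture on a day, and fewer of all genes were called in them as well. In GENCODE, 17.8% of the 25-base words of the transcript lie opposite the antisense RNA E230016M11Rik, which itself went from 2.00 ± 0.0838 CPM at day 0 to 6.33 ± 0.886 CPM at day 4 (SD, n = 2), and the use of strand in counting is not given in the sources used here.

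Ccng1 (NM_009831, gene on chromosome 11 from 40748552 to 40755309) encodes cyclin G1, which brings a phosphatase to MDM2, and its promoter match is shown above. Its level was 73.8 and 68.4 CPM at day 0, 125 and 116 CPM at day 2 and 106 and 109 CPM at day 4. Both later days were above day 0, and day 4 lay just below day 2. The early step gave a log2 fold change of 0.76 (SE 0.10, edgeR adjusted p = 9.29e-05), the late step -0.16 (SE 0.10, edgeR adjusted p = 0.259), and the course as a whole 0.60 (SE 0.10, edgeR adjusted p = 0.00032).

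The arrest targets of p53 outside the group went down more often than up. Of 11 listed, 8 were tested. By day 4, 5 were lower, 1 was higher and 2 were not called, with a median log2 fold change of -0.78. The log2 fold changes of the 8 ran from -3.39 to 2.70. Those of single genes other than Cdkn1a are given only where the mean log2 CPM was not under 1. The 75.0% called were near the 71.8% of all genes (35.5% higher and 36.4% lower). Cdkn1a, which encodes the kinase inhibitor p21 and is the best known p53 target, was at 21.3 and 33.1 CPM at day 0, 9.34 and 10.9 CPM at day 2 and 6.07 and 8.11 CPM at day 4. Every later culture was below both day 0 cultures, which differed by 1.56 times between themselves, and the log2 fold change by day 4 was -1.93 (SE 0.22, edgeR adjusted p = 1.13e-05). Gdf15, a stress cytokine of erythroblasts, fell from 8.67 ± 0.552 to 0.844 ± 0.413 CPM (SD, n = 2; log2 fold change -3.39, SE 0.27, edgeR adjusted p = 9.58e-07), and Plk3, a stress-responsive kinase, fell by 1.26 on the log2 scale (edgeR adjusted p = 9.15e-05). Cdkn1a fell and Ccng1 rose by day 4. Their sequences were shown because their courses differed, so this contrast is no test of the promoter matches. Rprm had 0 counts and Plk2 1 count over the 6 libraries, and neither was tested.

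Trp53inp1 (NM_001199105, gene on chromosome 4 from 11156441 to 11174379), a nuclear protein that promotes phosphorylation of p53 and also takes part in autophagy, had the largest change of the 10. It was at 1.94 and 1.67 CPM at day 0, from 79 and 83 counts, at 23.2 and 19.8 CPM at day 2 and at 41.4 and 45.5 CPM at day 4. The days did not overlap. Its log2 fold change was 3.58, or 11.9-fold, in the early step (SE 0.16, edgeR adjusted p = 8.41e-08), 1.02 in the late step (SE 0.13, edgeR adjusted p = 0.000446) and 4.59, or 24.1-fold, over the course (SE 0.16, edgeR adjusted p = 7.93e-09).

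Zmat3 (NM_009517, gene on chromosome 3 from 32334792 to 32365665), a zinc finger protein that binds RNA and affects splicing, rose by day 2. It had 10.9 and 10.6 CPM at day 0, 21.7 and 22.6 CPM at day 2 and 24.3 and 26.1 CPM at day 4. All values of a later day lay above those of the earlier ones. The early step added 1.04 on the log2 scale (SE 0.12, edgeR adjusted p = 2.64e-05), and the course as a whole 1.23 (SE 0.12, edgeR adjusted p = 4.04e-06), whereas the late step of 0.19 was not called (edgeR adjusted p = 0.241).

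Phlda3 (NM_013750, gene on chromosome 1 from 135766085 to 135769134), a membrane-binding protein that opposes AKT and so favours cell death, was not called in any comparison. It had 8.33 and 11.4 CPM at day 0, 9.87 and 9.89 CPM at day 2 and 7.54 and 8.84 CPM at day 4. The day 0 cultures spanned more than the difference between the means of the days. Over the course its log2 fold change was -0.27 (SE 0.17, edgeR adjusted p = 0.179), and without replicate 1 of day 0 it was -0.47 and called (edgeR adjusted p = 0.0129).

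The apoptosis targets outside the group were split. Of 12 tested among 14 listed, 5 were higher, 5 lower and 2 not called by day 4, with a median log2 fold change of 0.06. Called were 83.3%, beside 71.8% of all genes (35.5% higher and 36.4% lower). Bbc3, the BH3-only killer PUMA, rose from 5.64 and 4.86 CPM at day 0 to 16.1 in each culture at day 2 and 21.0 and 21.9 CPM at day 4 (log2 fold change 2.03, SE 0.14, edgeR adjusted p = 2.88e-07). Bax, the pore former of the mitochondrial outer membrane, fell from 76.8 and 115 CPM at day 0 to 35.8 and 39.2 CPM at day 2 and 38.8 and 37.5 CPM at day 4 (log2 fold change -1.33, SE 0.17, edgeR adjusted p = 2.59e-05). Bbc3 and Bax thus moved in opposite directions without overlap between day 0 and the later days. Aen, an apoptosis-enhancing nuclease (log2 fold change -1.73, edgeR adjusted p = 6.71e-07), and Siva1, a death receptor adaptor (-1.41, edgeR adjusted p = 1.53e-06), also fell. The death receptor gene Fas and Casp1 had 0 counts in all 6 libraries.

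Sesn1 (NM_001162908, gene on chromosome 10 from 41810574 to 41908436) and Sesn2 (NM_144907, gene on chromosome 4 from 132492804 to 132510456) encode sestrins, which restrain mTORC1 when amino acids are scarce and support antioxidant defence, and they moved in opposite directions. Sesn1 was at 25.8 and 22.3 CPM at day 0, 42.1 and 41.2 CPM at day 2 and 40.2 and 43.9 CPM at day 4. Sesn2 was at 133 and 128 CPM at day 0, 82.9 and 86.3 CPM at day 2 and 91.1 and 67.0 CPM at day 4. For both genes every later culture lay on 1 side of the day 0 cultures, and the values of day 2 and day 4 overlapped. The early step gave a log2 fold change of 0.79 for Sesn1 (SE 0.12, edgeR adjusted p = 0.000177) and -0.63 for Sesn2 (SE 0.14, edgeR adjusted p = 0.00203), and the late step gave 0.01 (edgeR adjusted p = 0.942) and -0.10 (edgeR adjusted p = 0.619). Over the whole course they were at 0.81 (SE 0.12, edgeR adjusted p = 9.66e-05) and -0.73 (SE 0.14, edgeR adjusted p = 0.000574), and leaving out single libraries moved that of Sesn2 between -0.97 and -0.53.

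Sesn2 is also a known target of ATF4, the transcription factor of the integrated stress response. Of the list of 10 ATF4 genes, which contains it, 8 were lower, 1 higher and 1 not called by day 4. The 90.0% called stand beside 71.8% of all genes (35.5% higher and 36.4% lower), and the median log2 fold change of the list was -1.33. Atf4 itself was at 442 and 630 CPM at day 0, 247 and 234 CPM at day 2 and 179 and 128 CPM at day 4 (log2 fold change by day 4 of -1.80, SE 0.19, edgeR adjusted p = 7.71e-06). Ddit3, the factor CHOP, was at 82.3 and 136 CPM at day 0 and 44.1 and 27.7 CPM at day 4 (-1.60, SE 0.24, edgeR adjusted p = 0.000109). The cultures of day 0 and of day 4 differed more for these genes than for most of the 10, with replicate 2 at 1.43 times replicate 1 for Atf4 at day 0 and at 0.715 times at day 4. Chac1, which degrades glutathione (-2.85, edgeR adjusted p = 1.37e-06), and Trib3, a pseudokinase (-2.77, edgeR adjusted p = 9.6e-06), fell most, and without replicate 1 of day 4 that of Trib3 was -3.54. Any link between Sesn2 and these genes was not tested.

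**Figure D2:**
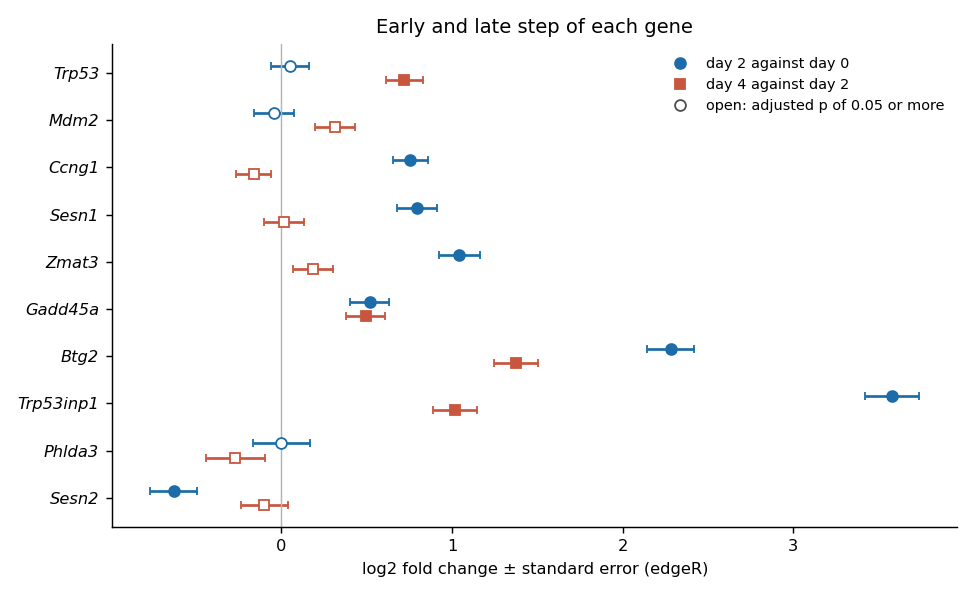
The log2 fold change of each gene for day 2 against day 0 (circles) and day 4 against day 2 (squares). Bars show the standard error derived from the edgeR F statistic, and open symbols an adjusted p of 0.05 or more. Trp53 stands alone with an open early and a filled late symbol, at 0.05 and 0.72, while Ccng1, Sesn1, Zmat3 and Sesn2 show the reverse.

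Whether the steps differed in size was tested on the log2 scale as the change from day 2 to day 4 minus the change from day 0 to day 2. The difference passed the test in 6 of the 10 genes, 1 positive and 5 negative, beside 30.0% of all genes (13.1% positive and 16.9% negative). Only Trp53inp1 also had a difference of at least 1 in size, beside 15.7% of all genes. It was positive for Trp53 (0.67, SE 0.19, edgeR adjusted p = 0.0242) and negative for Ccng1 (-0.92), Sesn1 (-0.78), Zmat3 (-0.86), Btg2 (-0.90) and Trp53inp1 (-2.56, SE 0.23, edgeR adjusted p = 6.78e-05). Mdm2, Phlda3, Sesn2 and Gadd45a were not called. On the CPM scale the order is another one for Btg2, whose mean rose from 10.6 to 51.4 and then to 134, so that more counts were gained late although the fold was smaller. Without replicate 1 of day 2 only Trp53inp1 was called, and without replicate 2 of day 2 Trp53inp1 and Ccng1, while the share called among all genes went down to 6.45% and 7.22%. The differences that lost their call there kept their sign, with Btg2 at -1.11 and -0.67 and Ccng1 at -0.81. That of Sesn1 also lost its call without replicate 1 of day 4 (-0.72, edgeR adjusted p = 0.0585), and that of Trp53 was also lost with total counts (0.39, edgeR adjusted p = 0.152) and without either day 4 library.

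The order of the genes by level changed over the course. Divided by transcript length, Sesn2 (37.7 ± 1.05), Gadd45a (33.4 ± 2.59) and Trp53 (33.3 ± 4.02 CPM per kilobase; SD, n = 2) were the highest of the 10 at day 0, and the last 2 of these did not differ beyond their spread. Trp53inp1 was the lowest, at 0.334 ± 0.0346 CPM per kilobase. At day 4, Gadd45a (67.3 ± 7.85), Trp53 (56.8 ± 1.01) and Btg2 (48.7 ± 1.84 CPM per kilobase) led, with Sesn2 in place 5 at 22.8 ± 4.90 and Trp53inp1 in place 8 at 8.04 ± 0.546. Neighbours that did not differ beyond their spread were also Phlda3 and Sesn1 at day 0, and Trp53 with Ccng1 and Mdm2 with Sesn1 at day 2. Zmat3 was the lowest at day 4, with 3.23 ± 0.158 CPM per kilobase. Btg2 moved from place 8 to place 3.

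Several genes have paralogs, and of 12 listed 10 were tested. By day 4, 7 were higher, 1 lower and 2 not called, with a median log2 fold change of 0.55. The 80.0% called stand beside 71.8% of all genes (35.5% higher and 36.4% lower). The p53 relatives Trp63 and Trp73 had 0 and 5 counts over the 6 libraries and were not tested. Sesn3, a sestrin controlled by FOXO factors, rose from 1.71 ± 0.113 CPM per kilobase through 8.09 ± 0.980 to 12.5 ± 0.0253 (SD, n = 2; log2 fold change 2.87, SE 0.12, edgeR adjusted p = 1.88e-08), so that the least abundant sestrin of day 0 lay between Sesn2 and Sesn1 at day 4. Trp53inp2, a factor of autophagosome formation, rose like Trp53inp1 at both steps (log2 fold changes of 1.48 and 1.28, edgeR adjusted p = 1.94e-05 and 0.000294), though it began above Trp53inp1 and ended below it per kilobase. Ccng2, the other cyclin G and a known FOXO target, rose by 1.20 on the log2 scale (SE 0.13, edgeR adjusted p = 7.61e-06). Gadd45g rose by 2.47 (SE 0.17, edgeR adjusted p = 3.8e-07), beside 1.01 for Gadd45a, while Gadd45b rose by 0.50 (SE 0.13, edgeR adjusted p = 0.0044). Phlda2 fell by 3.66 on the log2 scale from 49.9 and 157 CPM at day 0, and by 2.62 without replicate 2 of day 0, which was 3.14 times as high as replicate 1.

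**Figure D3:**
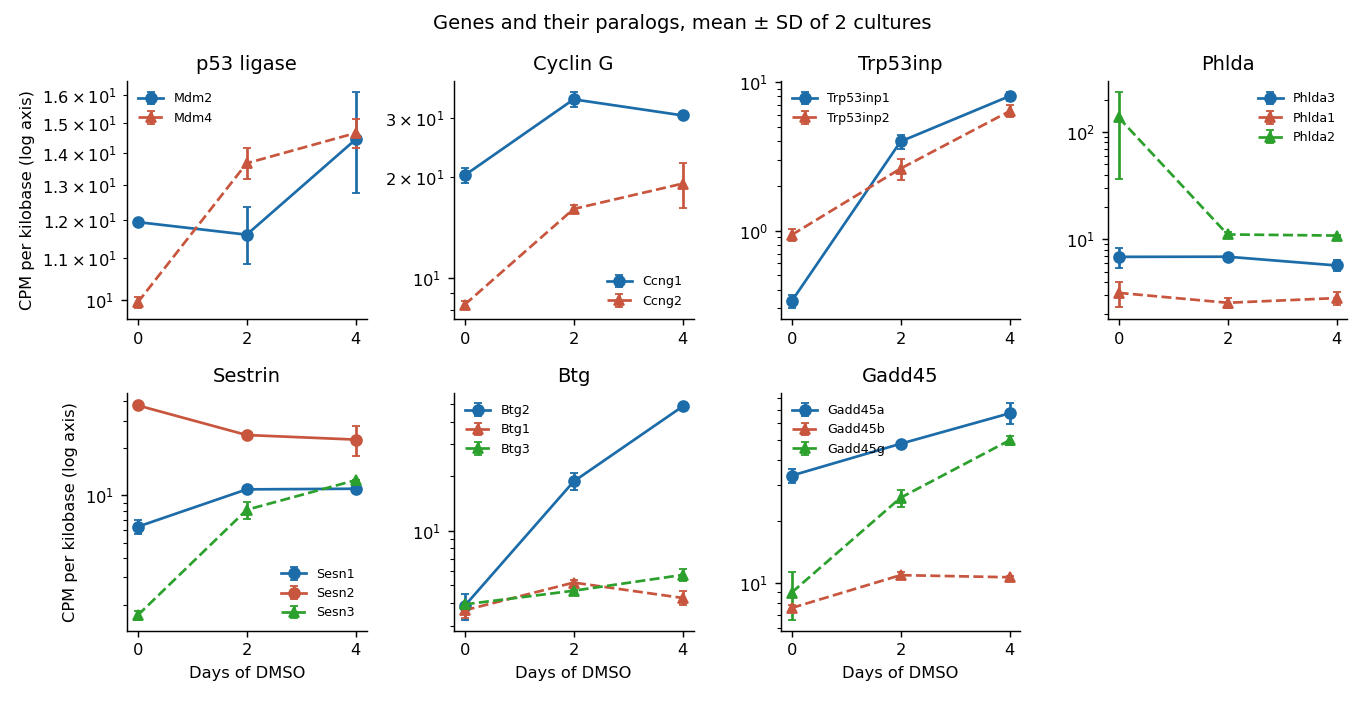
Mean level per kilobase of transcript (CPM per kilobase, log axis, bars for the SD of 2 cultures) of 7 gene families against days of DMSO, with solid lines for p53 targets of the group and dashed lines for their paralogs. Sesn3 climbed from below Sesn1 to just above it, and Trp53inp1 overtook Trp53inp2.

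Of 8 DNA repair targets, 3 were higher, 2 lower and 3 not called by day 4. Ddb2, which recognizes ultraviolet damage, rose from 9.40 ± 2.16 CPM at day 0 to 26.0 ± 2.95 CPM at day 2 and was at 22.0 ± 1.49 CPM at day 4 (SD, n = 2; log2 fold change 1.23, SE 0.17, edgeR adjusted p = 4.77e-05). The Fanconi gene Fancc fell (log2 fold change -1.32, edgeR adjusted p = 0.000207). Of 12 metabolic and autophagy targets, 4 were higher, among them Sesn3, and 4 lower, with Ulk1, the kinase that starts autophagy, up by 1.97 (edgeR adjusted p = 1.72e-07) and Gls2, a mitochondrial glutaminase, down (log2 fold change -1.21, edgeR adjusted p = 1.36e-05). Of 10 other targets, 8 were tested, with 6 higher and 2 lower. The shares called in these 3 lists were 62.5%, 66.7% and 100%, beside 71.8% of all genes. Pltp, a phospholipid transfer protein (1.65, edgeR adjusted p = 2.62e-06), Abhd4, a lipase (1.47, edgeR adjusted p = 1.08e-06), and Tap1, a peptide transporter (0.95, edgeR adjusted p = 6.8e-05), rose most among those whose mean log2 CPM was not under 1.

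Over the 5 target lists together, 48 of 55 genes were tested, and by day 4 19 were higher, 18 lower and 11 not called, so 77.1% were called where all genes gave 71.8%. Their median log2 fold change was -0.14, where the 10 genes of the group had 0.79. By list it was -0.78 for arrest, 0.06 for apoptosis, 0.22 for repair, -0.22 for metabolic and autophagy and 0.92 for other targets. Genes that p53 lowers through the DREAM repressor complex, which drive mitosis, were 9 lower and 1 not called of 10, with a median of -1.28. Of all genes 36.4% were lower. Ccnb1 (-1.50, edgeR adjusted p = 1.11e-05), Bub1 (-1.50, edgeR adjusted p = 1.27e-06) and Plk1 (-1.48, edgeR adjusted p = 1.38e-06) fell most, and Cdc25c stayed at -0.02 (edgeR adjusted p = 0.866).

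**Figure D4:**
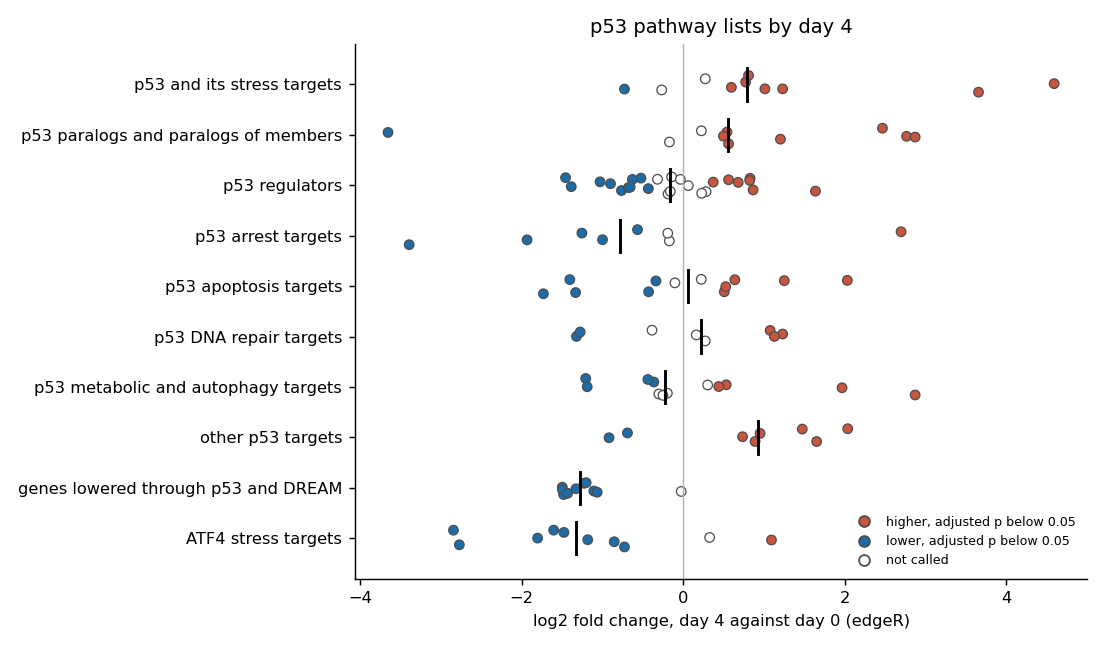
The log2 fold change for day 4 against day 0 (edgeR) of each tested gene in the group of 10 and in 9 lists, with red for higher, blue for lower and white for not called, and a black bar at the median of each list. The group of 10 (median 0.79), the paralogs (0.55) and the list of other targets (0.92) lie mostly above 0. The arrest targets, the DREAM genes and the ATF4 genes lie mostly below 0, and the remaining lists spread to both sides.

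The genes with the course most like that of Trp53, by the root mean square distance between log2 CPM profiles over the 6 libraries and among 10453 genes, were Mbd6 (0.0542), Sbno2 (0.0614) and Trappc2l (0.0645). Each had a small early change and a rise after day 2, with late log2 fold changes of 0.74, 0.76 and 0.59. Nearest to Mdm2 were Vipas39 (0.0482), Atp6v1e1 (0.0538) and Hif3a (0.0602), whose log2 fold changes by day 4 were 0.21, 0.27 and 0.14.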

How the data were processed

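RNA was measured in 6 libraries, 2 cultures on each of 3 days, grouped by the sample titles. Per the labels and the paper's methods, the authors trimmed adapters with cutadapt, aligned to mm10 with TopHat and deposited unnormalized read counts per RefSeq transcript, and HTSeq is named in the submitters' processing notes. Its strand setting and the annotation release are not given in the sources used here. Lines without a transcript were left out. Symbols came from RefSeq (GRCm38.p6) for 32199 and GENCODE for 187 of 32654 transcripts, and lengths from GENCODE.

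edgeR 4.0.16 in R 4.3.3 tested all 18351 transcripts kept by filterByExpr in 1 quasi-likelihood fit over the 6 libraries with TMM factors and a mean per day, with Benjamini-Hochberg adjustment. The prior count for log2 CPM was 2. Standard errors (SE) were derived from the test, as the size of the log2 fold change divided by the square root of its F statistic. Counting error is smaller where counts are high, and of the 10 genes Trp53inp1 at day 0 had the fewest, 79 and 83. The p-values rest on the spread between 2 cultures per day, which the fit shares over the 3 days and moderates across transcripts. Alternatives were DESeq2 1.42.0, other scalings, no filter, fits of 2 days, the replicate number as a block, leaving out each library, a log2 fold change of at least 1 and other transcripts. The fit and the motif search were tested on simulated data. The genes and lists, and the motif search, were chosen with earlier results of these data known. Named were all 10 genes, 11 fixed pathway genes, up to 3 called genes per list with the largest change by day 4 and a mean log2 CPM not under 1, and 3 nearest profiles each for Trp53 and Mdm2. A gene that this rule names is not reported here. Gadd45g and E230016M11Rik lie outside this rule and were named after their values were seen, as were Cdc25c and the genes listed with counts only. Shared sequence was measured in words of 25 bases, a length changed after longer words had been tried. Shorter words give a larger share for Trp53 and its pseudogene.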

Additional observations from a re-analysis of the deposited data

How the results depend on the processing

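Over 40 results on single genes of the group, 526 values were computed under other settings. Of these, 503 kept their side of the threshold, 16 lost a call, 7 gained one and none of the called changes turned its sign. The values from other transcripts (of Trp53, Mdm2, Trp53inp1 and Sesn1) rest on nearly the same counts, so they are no independent check. The numbers of genes called in the early step, the late step and the whole course were within 1.5 times of 7, 4 and 8 under every setting except a log2 fold change of 1 or more in size, which left 3, 2 and 4. That limit left 1 of 6 for the difference between the steps, 5 of the paralogs, 4 of the p53 regulators, 5 of the apoptosis targets, 4 of the metabolic and autophagy targets and 3 of the other targets. With 1 library left out, where the lone culture of a day is assumed to vary like the other days, the number called for the difference between the steps lay between 1 and 6. Total counts moved the median log2 fold change of all genes by 0.20 in the early step and 0.12 over the whole course, and no called gene of the group or the lists turned its sign under any scaling. Differences between replicates correlated by 0.032 to 0.079 between days. Each difference is 1 library against 1, so these values cannot tell whether the same replicate number marks the same culture. The fit with the replicate block called 7, 4, 8 and 6 of the 10 genes, the same numbers as without it. With 2 cultures per day the spread is poorly known, and small changes such as that of Mdm2 fall on either side of the threshold.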
